A study of Mus musculus with 4 samples.

Results

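Zfp genes encode zinc finger proteins of the mouse dentate gyrus (DG), and their RNA was measured after repeated electroconvulsive stimulation (ECS), an animal model of electroconvulsive therapy, and after chronic fluoxetine, a selective serotonin reuptake inhibitor. The genes were taken by name, as those whose symbol is Zfp followed by a digit. Of 173 such genes on the array, 128 reached an average signal of 50 across the 4 arrays, among 7935 measured genes in all. Each gene was represented by its brightest probe set, the group of probes that reports 1 transcript. The other 45 Zfp genes lay below that signal. The genes nearest to the limit were Zfp605 above it, with a mean signal of 50.8, and Zfp423 and Zfp36, both with 53.2, and Zfp60 and Zfp930 below it, with 49.9 and 49.7.

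All mice were of the C57Bl/6 strain, and the methods describe males obtained at 8 weeks of age. The ECS group had 11 sessions under isoflurane anaesthesia, 4 a week for up to 3 weeks, and the sham group was handled alike without shock. The fluoxetine group drank fluoxetine at 22 mg/kg per day for 4 weeks with saccharin in the solution, and the vehicle group is labelled as given water for 28 days. The labels place the ECS and sham samples 6 h after the last session, whereas the methods give 24 h. The DG RNA of each group was pooled and hybridized to 1 array. The fluoxetine pool held mice that had been chosen for small frequency facilitation at the mossy fiber synapse (n = 3). With 1 array per group there is no replicate, so no test, SD or p-value can be given for any difference.

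Most Zfp proteins bind DNA through tandem C2H2 zinc fingers, in which cysteine and histidine residues hold a zinc ion. Many also carry a KRAB domain, which recruits the corepressor Trim28 and silences chromatin, and such genes often lie in clusters. A smaller number of Zfp names belong to proteins of other kinds, such as the CCCH zinc finger protein Zfp36, which binds AU-rich elements and shortens the life of mRNA. Zfp36 is also known as an immediate early gene.

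The values are signal intensities as deposited, without a common scale. The median log2 ratio over all 13422 probe sets past the signal limit was -0.10 for ECS over sham and 0.12 for fluoxetine over vehicle. These medians were subtracted, so a log2 ratio below is relative to the typical probe set, and a gene is called higher or lower at a difference of at least 1.5-fold. The spread between untreated pools is known only from sham over vehicle, whose median of -0.50 was likewise subtracted. The control spread of a gene is the scaled median absolute deviation of that ratio over the 500 probe sets nearest in signal. The labelled tissue was checked by markers of granule cells, the principal neurons of the DG. All 5 that are on the array were measured, and their summed signal was 10479 in the sham, 6434 in the ECS, 15615 in the vehicle and 7981 in the fluoxetine pool. With ECS their log2 ratios were -0.10 for Prox1, -0.11 for C1ql3, -0.61 for Dsp, -1.35 for Calb1 and -2.29 for Tdo2. With fluoxetine they were 0.10, -0.48, -1.38, -2.12 and -3.40 in the same order. The paper reports that repeated ECS lowered Calb1, Tdo2 and Dsp and left NeuN unaffected. In pools of tissue, fewer cells of a type and less RNA per cell cannot be told apart.

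In the same direction with both treatments, 3 Zfp genes were called. Zfp36 and Zfp185 were higher (1.56% of the 128, beside 2.97% of all genes) and Zfp503 was lower (0.781%, beside 1.88% of all genes). Without the subtraction of the median these genes were called likewise, beside 2.79% and 1.9% of all genes. Zfp36 and Zfp185 had signals below 50 in both control pools and reached the limit through the treated pools, and with signals below 50 taken as 50 neither was called with both treatments. The bases just before their start sites are shown because these 3 genes had the same call with both treatments. They come from RefSeq (GRCm38.p6), run 5′ to 3′ on the strand of the gene and end 1 base before the start. Capitals mark a CArG box, the 10-base element bound by serum response factor at many activity-induced genes.
Zfp36, chr7:28379229-28379478, minus strand: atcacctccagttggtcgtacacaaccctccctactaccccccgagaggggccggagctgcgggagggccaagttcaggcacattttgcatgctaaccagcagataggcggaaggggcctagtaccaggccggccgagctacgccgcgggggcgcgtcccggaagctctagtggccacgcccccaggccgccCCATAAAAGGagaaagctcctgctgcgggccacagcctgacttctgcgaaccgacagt
Zfp185, chrX:72987089-72987338, plus strand: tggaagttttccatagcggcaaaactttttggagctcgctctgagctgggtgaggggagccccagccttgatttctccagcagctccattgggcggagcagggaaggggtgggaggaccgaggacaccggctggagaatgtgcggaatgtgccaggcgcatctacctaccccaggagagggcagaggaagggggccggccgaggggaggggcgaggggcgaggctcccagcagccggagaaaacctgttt
Zfp503, chr14:21989602-21989851, minus strand: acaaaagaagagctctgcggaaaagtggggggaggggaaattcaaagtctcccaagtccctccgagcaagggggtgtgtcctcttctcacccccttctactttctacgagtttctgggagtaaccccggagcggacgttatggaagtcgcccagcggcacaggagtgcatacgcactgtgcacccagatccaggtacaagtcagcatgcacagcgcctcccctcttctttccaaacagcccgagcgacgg
The CArG box of Zfp36 matches that motif on either strand and starts 58 bases before the start site, where it shares 1 base with a GGGCGG box on the other strand. The window also holds GCGNGGGCG, the letters bound by Egr factors, 105 bases before the start. In 27025 mouse genes, using the first listed start and the 250 bases before it on both strands, 1.4% held a CArG box and 4.65% held GCGNGGGCG. Of the 128 measured Zfp genes, 104 had a listed window, and a CArG box was found in that of Zfp36 and that of Zfp644. The CRE letters TGACGTCA were in none of the 104 and in 1.62% of all windows, and the shorter TGACG was in 26.9% of the Zfp windows and 17.9% of all. The AP-1 letters TGANTCA were in 6.73% and 6.87%. GGGCGG, the GC box, was in 47.1% of the Zfp windows and 32.9% of all, and the median number of CG dinucleotides was 12 in the former and 6 in the latter. The window of Zfp185 held a GGGCGG box 160 bases before the start. The window of Zfp503 held none of the 7 motifs searched, which also included CACGTG, found in 5.77% of the Zfp windows and 6.05% of all. A match of letters is not evidence of binding.

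Zfp503, a transcriptional repressor of the NET family that takes part in neuronal differentiation, had the lowest ratio of the 128 Zfp genes with each treatment. Its signal was 140.3 in the sham and 36.3 in the ECS pool, and 183.3 in the vehicle and 74.8 in the fluoxetine pool. Both treated pools thus lay below both control pools. The log2 ratios were -1.85 with ECS and -1.41 with fluoxetine, or 3.62-fold and 2.67-fold lower, against a control spread of 0.28 and a ratio of sham to vehicle of 0.12. With signals below 50 taken as 50, the ratio with ECS was -1.41. Its other probe set, with all signals at 50.9 or less, had -1.25 and -0.87.
Zfp703, the paralogue of Zfp503 in the NET family, had higher ratios. Its signal was 74.2 in the sham, 97.4 in the ECS, 81.0 in the vehicle and 385.5 in the fluoxetine pool, so the fluoxetine pool stood apart from the other 3. The log2 ratio was 2.13 with fluoxetine, or 4.37-fold higher, the highest ratio of any of the 128 genes with either treatment, and 0.49 with ECS, which is under 1.5-fold. Its control spread was 0.25 and its ratio of sham to vehicle 0.38. Whether the response to the treatments differed was not tested, as there are no replicates.
Of the 6 measured Zfp genes listed as cofactors and regulators of neural development, Zfp503 and Zfp423 were lower with ECS, beside 4.37% of all genes. With fluoxetine Zfp503 was lower and Zfp703 higher, beside 5.05% and 5.85% of all genes. Zfp423, a partner of Ebf transcription factors, had signals of 63.7 in the sham, 33.3 in the ECS, 56.1 in the vehicle and 59.9 in the fluoxetine pool. With ECS its log2 ratio was -0.84, and with fluoxetine it was -0.03. The sham pool itself exceeded the vehicle pool by 0.69, and with the ECS pool set against vehicle the ratio was -0.16. Zfp521, the paralogue of Zfp423, had 0.11 and 0.17, and Zfp292 -0.33 and -0.07. Zfp148, which binds GC-rich promoters, had 0.09 and -0.22, while its 3 other probe sets had -0.17 to -0.38 with ECS.

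**Figure D1:**
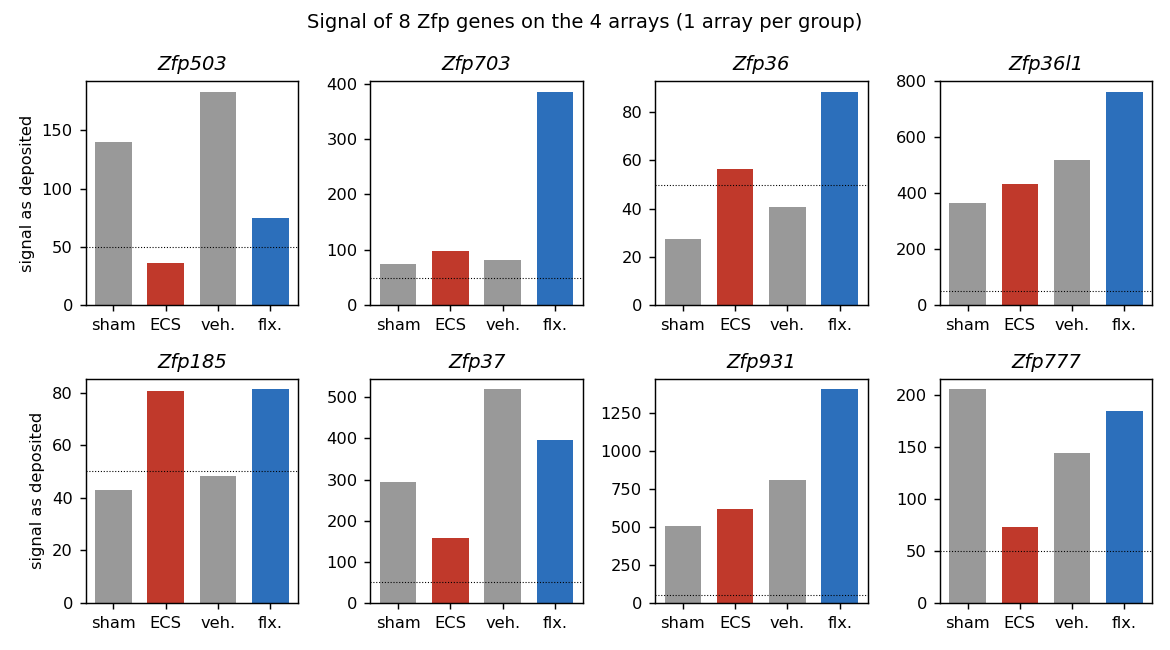
Signal intensity as deposited of 8 Zfp genes on the sham, ECS, vehicle (veh.) and fluoxetine (flx.) arrays, with 1 array per group and no error; the dotted line is a signal of 50. Zfp503 was lower in both treated pools, and the fluoxetine pool had a signal of 385.5 for Zfp703 against 74.2 to 97.4 in the other pools.

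Among the RNA-binding members, Zfp36 alone was called, beside 15.5% of all genes called with at least 1 treatment. Its signal was 27.3 in the sham and 56.5 in the ECS pool, and 40.7 in the vehicle and 88.5 in the fluoxetine pool. Both treated pools were above both control pools, which lay below 50. The log2 ratios were 1.15 and 1.00 (2.21-fold and 2.00-fold higher) at a control spread of 0.41, with -0.07 between the control pools. With signals below 50 taken as 50, the ratios were 0.26 with ECS, which is under 1.5-fold, and 0.70 with fluoxetine. With the control arrays exchanged they were 1.07 and 1.07.
Its paralogues bind the same AU-rich elements and had brighter probe sets. Zfp36l1 had signals of 365.0, 431.3, 517.5 and 762.8 in the sham, ECS, vehicle and fluoxetine pools, and its log2 ratios were 0.34 with ECS and 0.44 with fluoxetine, where the control spread was 0.18. Neither reached 1.5-fold, and its other probe set had 0.47 and -0.04. Zfp36l2 had -0.08 and -0.19. Among the 3 paralogues, Zfp36l2 was the one with ratios below 0.
The remaining 7 of the 10 measured members with roles in RNA binding, turnover and translation were all under 1.5-fold. Zfp346, which binds double-stranded RNA, had 0.34 and 0.23. Zfp326, a component of a complex that couples transcription and splicing, had -0.21 and 0.35. Zfp598, a ubiquitin ligase that senses collided ribosomes, had -0.21 and -0.02. Zfp106, Zfp622, Zfp638 and Zfp830 had log2 ratios between -0.14 and 0.15 with ECS and between -0.26 and -0.02 with fluoxetine. The 10 had a median of -0.04 after ECS and -0.02 after fluoxetine, and the median over all 7935 genes was 0.00 in each comparison.
Of 15 mRNAs known as targets of Zfp36, all on the array, 6 were measured, and 4 of these were higher with ECS and 2 with fluoxetine, beside 5.15% and 5.85% of all genes. Of the 4, Ier3 and Myc had signals of 41.1 and 42.0 in the sham pool, below 50. The largest ratios were those of Fos, with log2 ratios of 5.10 and 1.22, and Ptgs2, which encodes cyclooxygenase, with 3.13 and 1.18. The list is made of activity-induced and inflammatory genes, and whether Zfp36 bore on their level was not tested.

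Zfp185, a LIM domain protein of the actin cytoskeleton that shares only the name with the C2H2 proteins, had signals of 42.8 in the sham, 80.5 in the ECS, 48.1 in the vehicle and 81.2 in the fluoxetine pool. Both treated pools exceeded both controls. The log2 ratios were 1.01 with ECS and 0.63 with fluoxetine, where the control spread was 0.36. With signals below 50 taken as 50 they were 0.77 and 0.58, and with the fluoxetine pool set against sham the latter was 0.29, so the call with fluoxetine was lost in both cases. Its other probe set had signals of 2.8 to 17.6 and is not read here.

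With ECS, 10 Zfp genes were lower and 2 higher. The lower ones were 7.81% of the 128, where 4.37% of all genes were lower, and the higher ones 1.56%, where 5.15% of all genes were higher. Ratios of dim genes scatter more, and 8.46% of all genes with a mean signal of 50 to 100 were lower, 6.61% at 100 to 200 and 4.04% at 200 to 500. In these classes 6 of 36, 3 of 35 and 1 of 37 Zfp genes were lower. Without the subtraction of the median, 16 were lower and 2 higher, beside 6.47% and 3.84% of all genes. The 6 added genes were Zfp112, Zfp213, Zfp472, Zfp740, Zfp942 and Zfp975, which had ratios of -0.58 to -0.51 after it.
Zfp777 had the next lowest ratio with ECS after Zfp503. Its signal was 205.1 in the sham, 73.2 in the ECS, 144.4 in the vehicle and 183.9 in the fluoxetine pool. The ECS pool was the lowest of the 4, while the sham pool was the highest. With ECS the log2 ratio was -1.39, and with fluoxetine 0.23. The ratio of sham to vehicle was 1.01, and against the vehicle pool the ECS pool had -0.38.
Zfp37, which belongs to the KRAB class, had signals of 295.1 in the sham and 158.7 in the ECS pool, and 519.3 in the vehicle and 396.8 in the fluoxetine pool. It was lower by 0.80 with ECS at a control spread of 0.18, and the ratio with fluoxetine was -0.51, under 1.5-fold. Its other probe set had -0.26 and -0.39, of the same sign but smaller with ECS. Over the mean of both probe sets the call with ECS was lost.
Zfp61 had signals of 129.1 and 73.7 in the sham and ECS pools and 198.2 and 222.6 in the vehicle and fluoxetine pools. With ECS its log2 ratio was -0.71, and with fluoxetine it was 0.05, and -0.83 with ECS set against vehicle. Zfp354b had -0.99 with ECS and -0.13 with fluoxetine (control spread 0.37), and -0.55 with ECS when signals below 50 were taken as 50, which is under 1.5-fold. Set against vehicle, its ratio with ECS was -0.66. Thus both genes were past 1.5-fold against either control, and the signals of Zfp61 were all above 50.
The remaining genes called lower with ECS were Zfp2 at -0.74, Zfp991 at -0.67, Zfp707 at -0.61 and Zfp825 at -0.59. Zfp2 and Zfp991 had signals of 30.1 and 29.1 in the ECS pool, and with signals below 50 taken as 50 the ratio of Zfp2 was -0.02. For Zfp991, with 49.6 in the sham pool, both signals were then 50 and no ratio could be read. Against vehicle the ratio of Zfp707 was -0.07 and that of Zfp825 -0.34, and another probe set of Zfp825 had 0.53. The control spread of these 4 genes was 0.33 to 0.37.

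With fluoxetine, 7 Zfp genes were lower and 5 higher. These are 5.47% and 3.91% of the 128, beside 5.05% and 5.85% of all genes, and the share of lower genes was near that of the array. Without the subtraction of the median, 5 were lower and 7 higher, beside 3.26% and 8.49% of all genes. Zfp189 and Zfp319 were then no longer lower, and Zfp202 and Zfp810 were higher.
Zfp931 had the brightest probe set of the genes called higher with fluoxetine. Its signal was 506.8 in the sham, 616.5 in the ECS, 806.7 in the vehicle and 1403.2 in the fluoxetine pool. The log2 ratio was 0.68 with fluoxetine, against a control spread of 0.14, and 0.38 with ECS. Its probe set is of a type that can also bind other transcripts, as were those of 13 of the 128 genes. Zfp51 had 0.60 with fluoxetine and -0.13 with ECS, and was under 1.5-fold after quantile normalization.
Zfp64, a C2H2 transcription factor, had the next lowest ratio with fluoxetine after Zfp503. Its signal was 239.3 in the vehicle and 146.7 in the fluoxetine pool, and 128.7 in the sham and 95.1 in the ECS pool. The log2 ratio was -0.83 with fluoxetine, against a control spread of 0.25, and -0.34 with ECS, and with the fluoxetine pool set against sham it was -0.44. Zfp90 had -0.80 with fluoxetine and -0.26 with ECS, and -0.71 against sham.
Zfp764 had -0.75 with fluoxetine, or -0.59 against sham, again by a probe set that can bind other transcripts. Zfp52 had -0.71, Zfp319 -0.63 and Zfp189 -0.60, and set against the sham pool these 3 had -0.51, -0.15 and -0.06. The vehicle pool exceeded the sham pool by 0.54 for Zfp189 and by 0.48 for Zfp319. With ECS, all 6 genes that were lower with fluoxetine other than Zfp503 had ratios below 0, between -0.39 and -0.12, and none reached 1.5-fold.

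**Figure D2:**
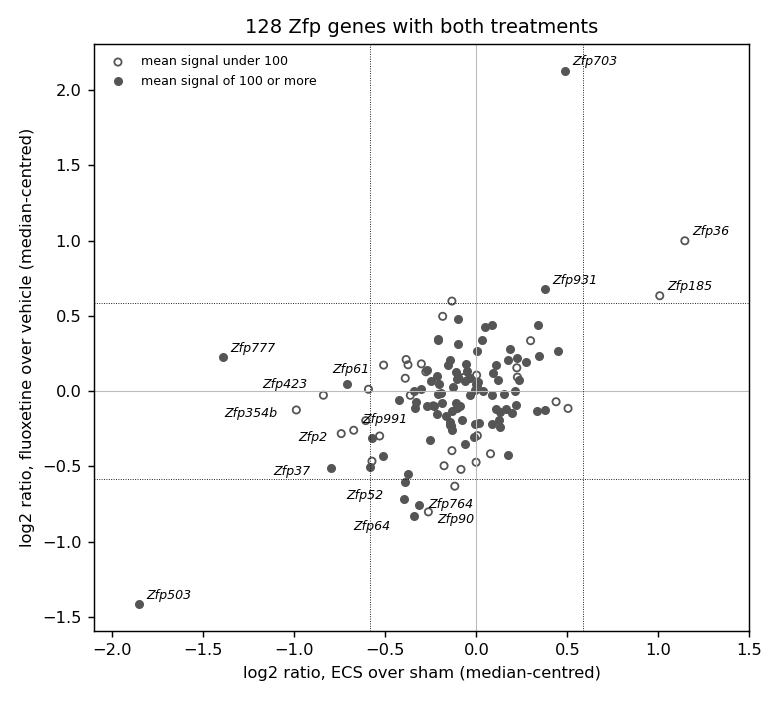
Median-centred log2 ratio of each of 128 Zfp genes with ECS over sham (x axis) and with fluoxetine over vehicle (y axis). Each point is 1 gene, open points have a mean signal under 100, and dotted lines mark 1.5-fold. Zfp503 lies at -1.85 and -1.41, Zfp36 at 1.15 and 1.00, and Zfp703 at 0.49 and 2.13.

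In all, 21 of the 128 Zfp genes (16.4%) were called with at least 1 treatment, beside 15.5% of all genes, and 27 (21.1%), beside 17.3%, without the subtraction of the median. None was called in opposite directions. The share of all genes so called was not counted, so this is not read as a trait of the Zfp genes. Between the control pools, sham over vehicle, 3 of the Zfp genes were higher (2.34%, beside 2.0% of all genes) and 2 lower (1.56%, beside 1.2%). Of the Zfp genes, 60.9% had ratios of the same sign with both treatments, and 67.0% of all genes had. The Spearman coefficient between the ratios with ECS and with fluoxetine was 0.34 across the 128 Zfp genes and 0.49 across all 7935 genes. The comparisons use different control arrays, and genes measured on the same arrays are not independent replicates. For the 30 Zfp genes with at least 2 probe sets past the limit, the ratios of the 2 brightest correlated at 0.14 with ECS and 0.30 with fluoxetine (Spearman, across genes), so the ratios of different probe sets of a gene were only weakly alike. Zfp207, a protein of the mitotic spindle, had 0.27 and 0.19 by its brightest probe set, but -0.70 and -0.87 by the next.

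As a group, the Zfp genes lay slightly below the rest of the array after ECS. Their median log2 ratio was -0.11, with 82 of 128 (64.1%) below 0, against 0.00 and 49.9% over all genes. With fluoxetine the median was -0.02 with 53.1% below 0, and between the control pools 0.00 with 49.2%. The quartiles of the Zfp ratios were -0.27 and 0.09 with ECS and -0.21 and 0.14 with fluoxetine.
The offset with ECS was seen in the 4 lower of 5 classes of signal. For Zfp genes with a mean signal of 50 to 100 the median was -0.18, against 0.03 for other genes of that signal, and 26 of these 36 Zfp genes were below 0. It was -0.10 against -0.03 at 100 to 200, -0.08 against -0.01 at 200 to 500, and -0.06 against -0.01 at 500 to 1000. The 4 Zfp genes at 1000 or more had 0.01, against 0.04. Between the untreated pools, sham over vehicle, the Zfp medians in the same classes were 0.07, 0.04, -0.02, -0.15 and -0.10, against 0.09, 0.03, 0.00, -0.01 and 0.00 for other genes. In the upper 2 classes the Zfp genes thus lay further below other genes between the untreated pools than with ECS. Zfp genes were dim as a group, with a median of the mean signal of 160 against 324 over all genes, and 28.1% of them were below 100, against 14.6% of all genes. With ECS set against vehicle the median of the Zfp genes was likewise -0.11. Both comparisons use the same ECS array, and the Zfp median between the control pools was 0.00, so this is not a separate result. The markers of cell types in the same arrays are given beside this. The summed signal of markers relative to the median of each array had log2 ratios with ECS of -0.60 for granule cells (5 of 6 measured), 0.86 for neuroblasts (3 of 3), 0.21 for interneurons (5 of 5), 0.08 for astrocytes (5 of 5), -0.16 for microglia (5 of 5) 0.12 for oligodendrocytes (3 of 4), 0.20 for endothelial cells (2 of 3), -1.12 for pyramidal cells (1 of 4) and -0.28 for choroid plexus (1 of 3). Such sums follow the brightest markers. For astrocytes the log2 ratios with ECS were 2.34 for Gfap, 0.44 for Aqp4, 0.11 for Aldh1l1, -0.10 for Gja1 and -0.54 for Slc1a3. The 1 pyramidal cell marker, Pou3f1, had signals of 44.9 in the sham and 19.2 in the ECS pool, both below 50. Its ratio of sham to vehicle was -0.71. None of the measured markers had a signal of 0, and their part in the result was not tested.

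**Figure D3:**
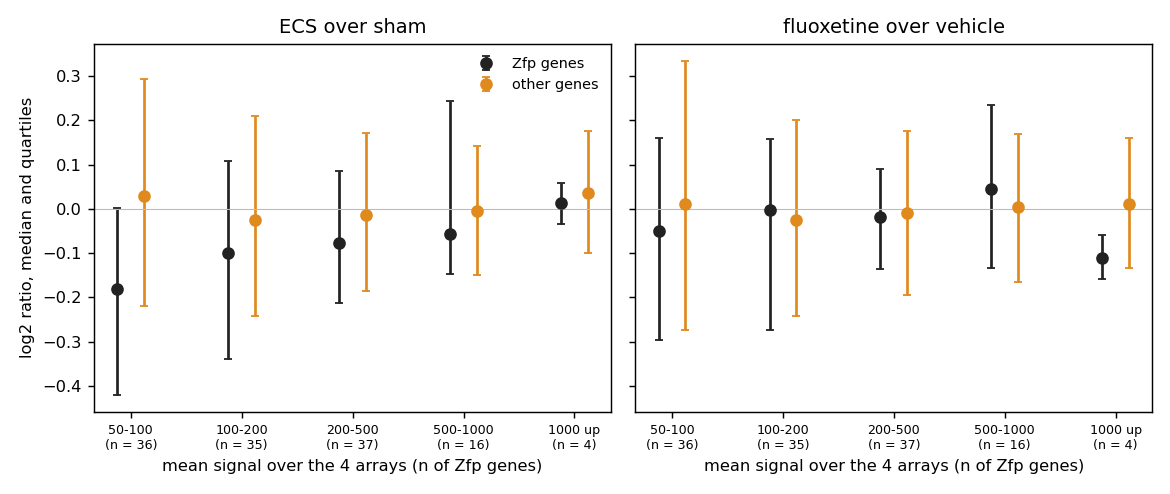
Median-centred log2 ratio (points are medians, bars run from the lower to the upper quartile) of Zfp genes and of other genes in 5 classes of mean signal, with ECS over sham on the left and fluoxetine over vehicle on the right. With ECS the Zfp medians were -0.18, -0.10, -0.08, -0.06 and 0.01 from the dimmest to the brightest class.

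Other zinc finger genes and the partners of KRAB proteins were read alongside. Of 9 measured Zscan and Zkscan genes, which encode C2H2 proteins with a SCAN domain, 7 were below 0 with ECS, with a median of -0.34. With ECS 1 was called lower, beside 4.37% of all genes. This was Zscan12 at -0.65, with a ratio of sham to vehicle of 0.41. With fluoxetine 2 were called lower, beside 5.05%, of which Zscan22 had -0.46 with ECS and -0.68 with fluoxetine. The signals of Zscan22 were 49.7 in the sham, 33.8 in the ECS, 77.7 in the vehicle and 52.8 in the fluoxetine pool. Without the subtraction of the median no gene of this list was lower with fluoxetine. Zkscan14 had -0.40 and -0.44. Zbtb proteins pair C2H2 fingers with a BTB domain. Of 16 measured genes of that name, which include the opposite-strand transcript Zbtb11os1, 12 were below 0 with ECS, with a median of -0.17, and 2 were called lower, beside 4.37% of all genes. Zbtb1 had -0.88 and -0.23, and Zbtb16, known as PLZF, had -0.25 and -0.81. The other gene called lower with ECS, Zbtb48, had -0.86 at an ECS signal of 43.3, with a ratio of sham to vehicle of 0.61. With fluoxetine the median of the Zbtb genes was 0.01, with 1 higher and 1 lower, beside 5.85% and 5.05% of all genes. The 6 Zc3h genes, of the CCCH kind, had medians of -0.04 and 0.05. None of them was called, beside 15.5% of all genes called with at least 1 treatment. The values were 0.17 and 0.20 for Zc3h15 and -0.06 and 0.29 for Zc3h8.
Of 16 measured genes of the KRAB corepressor machinery, 13 were below 0 with ECS, with a median of -0.14, and 9 with fluoxetine, with a median of -0.04. None was called with either treatment, beside 15.5% of all genes called with at least 1 treatment. Trim28, the corepressor that KRAB domains bind, had signals of 681.7 in the sham, 429.9 in the ECS, 806.1 in the vehicle and 981.6 in the fluoxetine pool. With ECS its log2 ratio was -0.57, and with fluoxetine it was 0.16. The control spread was 0.15 and the ratio of sham to vehicle 0.26, and without the subtraction of the median it was -0.67 with ECS, past 1.5-fold. The histone deacetylase Hdac1 had -0.44 and -0.50, and Mbd3, a subunit of the NuRD complex, -0.33 and -0.54.

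**Figure D4:**
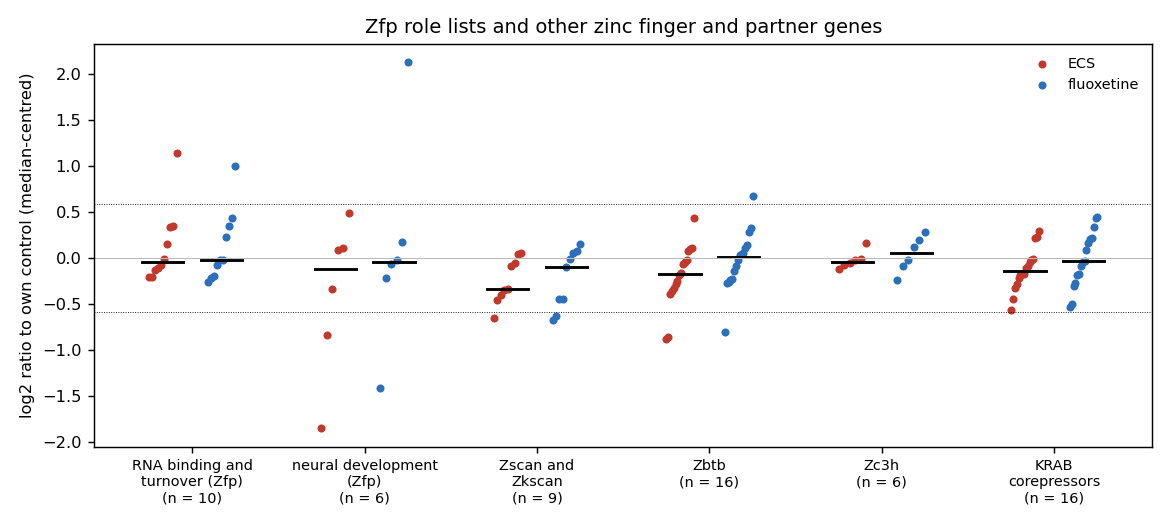
Log2 ratios, centred on the median, in 6 gene lists; red points are ECS over sham, blue points fluoxetine over vehicle, 1 point per gene by its brightest probe set. Horizontal bars give each list's median and dotted lines mark 1.5-fold. The medians with ECS were -0.34 for Zscan and Zkscan genes, -0.17 for Zbtb genes and -0.14 for KRAB corepressors.

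The remaining Zfp genes with listed roles were under 1.5-fold, except Zfp64, which is described above. Over all genes, 15.5% were called with at least 1 treatment. Zfp445, which guards imprinted genes, had 0.20 with ECS and -0.15 with fluoxetine, and Zfp532, a member of the Z3 chromatin complex, had -0.03 and 0.09. Of the receptor and signalling partners, Zfp110, which binds the p75 neurotrophin receptor, had -0.13 and 0.02, the ubiquitin ligase Zfp91 had 0.04 and 0.00, and Zfp704 had -0.10 and 0.31. Among 5 general and stem cell regulators none was called, and Zfp281, a pluripotency factor, had -0.23 and -0.10. Zfp318 had 0.38 and -0.12 by its brightest probe set, while another had 0.54 and 0.73, past 1.5-fold with fluoxetine. Ratios were 0.13 and -0.24 for Zfp219 and 0.03 and 0.34 for the nucleolar protein Zfp330. Of the genes with the highest mean signals, Zfp871 had 0.13 and -0.14 at signals of 1010 to 1684.
Genes of this family that lie next to each other were compared. Among the measured genes, 19 pairs were neighbours in the RefSeq annotation (GRCm38.p6), counting protein-coding genes. The ratios with ECS had the same sign in 8 of the 19 pairs, with fluoxetine in 9 and between the control pools in 13. The median difference within a neighbouring pair was 0.38 with ECS and 0.31 with fluoxetine. Over all pairs of the 128 genes it was 0.29 in each comparison. Between the control pools it was 0.29 within neighbouring pairs and 0.22 over all pairs, so neighbours differed more than other pairs there too. Zfp2 and Zfp354b, which are neighbours, had -0.74 and -0.99 with ECS, whereas Zfp52 and its neighbour Zfp948 had -0.71 and 0.43 with fluoxetine.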

How the data were processed

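Pooled DG RNA was hybridized to Affymetrix 430A 2.0 arrays, 4 in all. Per the labels and methods, the authors pooled RNA within a group, amplified it with the 3′IVT Express kit and, by the submitters' processing notes, computed the deposited signal intensities with MAS5, a statistical algorithm that combines the probes of a probe set. The intensities had no common scale. The study's change calls need single probes and were not repeated.

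Probe sets with a mean signal below 50 were left out, as in the methods, and so were 64 control probe sets. A signal of 0 would have been taken as 0.1, which occurred in 0 of the Zfp genes. Log2 ratios of each treated array to its own control, and of sham to vehicle, were centred on their median over 13422 probe sets, because the arrays were unscaled. Python 3.11.15, numpy 2.4.6, pandas 2.3.3 and matplotlib 3.10.9 were used, and the steps were tested on simulated data. Names came from the platform annotation, and all 173 gene identifiers had the same symbol in RefSeq. Of the array's probe sets, 16 that name a Zfp gene beside others were left out.

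The genes and lists were chosen with earlier results of these data known. Named genes were those called with both treatments, the 10 largest ratios per direction and treatment with signals below 50 taken as 50, members of role lists, the 5 of highest mean signal, those at the signal limit and the 2 largest of each other list. Of these, some under 1.5-fold are not described above. With ECS they were Zfp276 at 0.50, Zfp1 at 0.45, Zfp105 at 0.44 and Zfp46 at 0.33. With fluoxetine they were Zfp651 at 0.44, Zfp14 at -0.52 and Zfp959 at -0.55. Zfp2, Zfp991, Zfp213, Zfp942, Zfp975, Zfp644, Zfp444, Zfp944, Zfp467, Zfp772, Zscan12, Zbtb48 and Trim28 were named after their values were seen. So were the single markers of cell types. Protein sequences were not used here. The single array per group limits precision.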

Additional observations from a re-analysis of the deposited data

Results flagged for a closer look

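Among the 45 Zfp genes below the signal limit, 2 had a signal of at least 50 in the fluoxetine pool, below 50 in the vehicle pool and a ratio of at least 1.5-fold. The share of all genes below the limit with such increases or decreases was not counted, so this is not read as a trait of the Zfp genes. Zfp444 had 59.3 against 33.1, a log2 ratio of 0.72. Its ratio of sham to vehicle was 0.86, and its other probe set had -0.59 with fluoxetine. Zfp944 had 63.8 against 38.9, a log2 ratio of 0.59.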

How the results depend on the processing

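No paired analysis was possible because each group is 1 array. The 24 called ratios kept their direction in all 229 values under 11 alternatives, Zfp991 having none where signals below 50 were taken as 50. Most of these settings only move the filter or the centre, or shrink ratios, so they could hardly reverse a call. The exchange of control arrays could do so more readily. The mean over probe sets could change only Zfp37 and Zfp825, since every other called gene had 1 probe set past the limit. Under that mean both lost the call with ECS. The exchange of control arrays left 15 of the 24 at 1.5-fold or more, a pseudocount of 16 left 16, and a floor of 50 left 18 of 23. Against 12 genes called with ECS, 12 with fluoxetine and 3 with both in the same direction (9.38%, 9.38% and 2.34%, beside 9.53%, 10.9% and 4.85% of all genes), the counts were 28, 27 and 7 without a signal filter (16.2%, 15.6% and 4.05%, beside 25.7%, 26.6% and 9.7%). They were 4, 7 and 1 at a mean signal of at least 100 (4.35%, 7.61% and 1.09%, beside 8.06%, 9.25% and 4.37%), and 1, 2 and 0 at 200 (1.75%, 3.51% and 0%, beside 6.5%, 7.68% and 3.84%). At 1.2-fold they were 48, 43 and 21 (37.5%, 33.6% and 16.4%, beside 34.8%, 37.0% and 17.4%), and at 2-fold 4, 2 and 1 (3.12%, 1.56% and 0.781%, beside 2.82%, 3.29% and 1.52%). With the control arrays exchanged, 20 were called with ECS (15.6%, beside 11.8%). In the same direction with both, 1 was called with signals below 50 taken as 50 (0.781%, beside 4.23%), and 5 outside the central 95% of sham over vehicle (3.91%, beside 6.35%). The median of the Zfp genes without centring was -0.20 with ECS and 0.10 with fluoxetine, beside -0.10 and 0.12 over all genes. Under the other 10 settings it stayed between -0.12 and -0.06 with ECS and between -0.04 and 0.00 with fluoxetine. Other counts lay within 1.5 times the values above. The cause of these differences was not tested, except that stricter filters leave fewer genes, 92 and 57. Changes of dim genes are uncertain in size.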
